A study of Oryza sativa with 6 samples.

Results

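The genes described here encode 5 subunits of the MCM replicative helicase, MCM2, MCM3, MCM5, MCM6 and MCM7, and PCNA, the sliding clamp of DNA polymerase. They were found in the deposited tables by gene name for MCM3, MCM5, MCM6 and MCM7, and by locus identifier for MCM2 (BGIOSGA035270) and PCNA (BGIOSGA009238). All 6 were among the 4295 loci listed for over-expression against wild type, and 0 were among the 4341 listed for the libraries labelled knock-down. Either table or both held 6922 distinct loci. The genes were selected on their FPKM and q in the over-expression comparison, so those values are given as a description and support nothing further.

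Seedlings of indica rice, cultivar Pusa Basmati 1 (PB1), were sampled at 5 weeks of age for RNA sequencing. There were 6 libraries in 3 groups of 2, which were wild type, OsRDR3 over-expression and plants labelled OsRDR3 knock-down. The gene OsRDR3 encodes an RNA-dependent RNA polymerase. The sources used here give neither the promoter of the transgene, nor the number of independent lines, nor whether replicates were separate plants, so p-values may measure technical spread. Expression was deposited as FPKM, fragments scaled by transcript length and library size, with 1 pooled value per group and locus. Replicate spread and sequencing depth are therefore unknown for every value below. Each table listed loci with a p of at most 0.05 in the authors' Cuffdiff test. A locus is called here where the authors' q was under 0.05, and only called loci are said to rise or fall. The RNA-dependent RNA polymerase locus BGIOSGA002194 rose 296-fold with over-expression and 366-fold under the label knock-down, by the authors' deposited table of each comparison. A second such locus, BGIOSGA009008, was listed only for the label knock-down, where it rose 1.74-fold by the authors' deposited table. If BGIOSGA002194 is the target, its value in the second group goes against the label, and that group is named by its label only. Photosynthetic markers were at 7.34 to 4491 FPKM in wild type at the 12 such loci of the over-expression table, so the defining transcripts of green tissue were present.

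The MCM proteins form a ring that is loaded onto replication origins before S phase and unwinds DNA ahead of the replication fork. In yeast and animals the complete ring also holds MCM4, which no locus of either table carries as a name. PCNA encircles DNA behind the helicase, tethers the replicative polymerases and recruits many repair and chromatin factors. In plants these genes are expressed mainly in dividing cells, such as those of meristems and young leaf bases.

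In the authors' deposited table all 6 genes were higher in over-expression than in wild type and all 6 were called. Among all 17596 loci that the authors tested, a number obtained from the deposited p and q, 9.24% were called higher and 3.32% lower, and among the 4295 listed loci 37.9% and 13.6% were. The ranks behind the q-values imply 276 further loci at p of at most 0.05 that are not analysed here. The shares of tested loci may therefore be too low. At q under 0.01 the count was 3 of 6, namely MCM2, MCM3 and PCNA, where 21.2% of listed loci were called higher. The log2 fold changes of the 6 ran from 1.41 to 2.25 with a median of 1.71, beside a median of 0.67 over all listed loci. The MCM transcripts were scarce in wild type, between 0.228 and 0.498 FPKM, and reached 0.992 to 1.67 FPKM in over-expression. In whole seedlings, more dividing cells and more of these transcripts per cell cannot be told apart.

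MCM2 and MCM5 sit side by side in the ring and form the gate through which DNA enters, as worked out in yeast and Drosophila. MCM2 spans positions 13599502 to 13605143 of chromosome 11. All positions are those of the tables, whose genome build the sources used here do not name. For MCM2 the authors' deposited table read 0.498 FPKM (wild type) and 1.67 FPKM (over-expression), a log2 fold change of 1.74 with q = 0.00273. It was the most abundant of the 5 subunits in both groups.

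MCM5, on chromosome 2 from 36032035 to 36035908, read 0.300 FPKM (wild type) and 0.992 FPKM (over-expression) in the authors' deposited table, where its log2 fold change was 1.73 and its q 0.0397. Its over-expression level was the lowest of the 6, and its q was the closest to the threshold. The fold changes of this pair were nearly equal, 3.34 for MCM2 and 3.31 for MCM5, although MCM2 was the more abundant.

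MCM3 helps bring the helicase to the origin through contact with the loading factors, as known from yeast. It lies on chromosome 5 from 24847360 to 24851976. The authors' deposited table gave it 0.492 FPKM (wild type) and 1.58 FPKM (over-expression), a log2 fold change of 1.69 with q = 0.00732. Both its levels were close to those of MCM2.

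MCM6 and MCM7 belong with MCM4 to the subunits that carry helicase activity on their own in biochemical assays of yeast and animal proteins. MCM6 lies on chromosome 5 from 9926196 to 9932207 and read 0.360 FPKM (wild type) and 1.10 FPKM (over-expression) in the authors' deposited table, with a log2 fold change of 1.62 and q = 0.0260. This was the smallest fold change of the 5 subunits.

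MCM7 lies on chromosome 12 from 18451669 to 18456504. It had the lowest wild-type level of the 6, 0.228 FPKM, and reached 1.08 FPKM under over-expression in the authors' deposited table, with a log2 fold change of 2.25 and q = 0.0282. Its 4.75-fold difference was the largest of the 6, and it passed MCM5 in the order of levels. The wild-type order was MCM2, MCM3, MCM6, MCM5 and MCM7, and in over-expression it was MCM2, MCM3, MCM6, MCM7 and MCM5. Which neighbours in these orders differ beyond their spread cannot be said from pooled values.

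PCNA, on chromosome 2 from 36399993 to 36401684, was 8.43 to 18.4 times as abundant per transcript length as the MCM subunits in wild type. The authors' deposited table read 4.20 FPKM (wild type) and 11.1 FPKM (over-expression) for it, with a log2 fold change of 1.41 and q = 0.00105. That q is the lowest in the table and is shared by 721 loci. PCNA had the smallest fold change of the 6, 2.65, and the largest difference in level, 6.94 FPKM. Its excess over the MCM subunits ran from 6.69 to 11.2 times in over-expression.

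Summed over the 5 subunits, MCM FPKM was 1.88 in wild type and 6.43 in over-expression, a ratio of 3.42. MCM2 and MCM3 made up 52.7% of this sum in wild type and 50.5% in over-expression. The most and the least abundant subunit were 2.18 times apart in wild type and 1.68 times apart in over-expression. There is no replicate spread to judge this narrowing against.

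**Figure D1:**
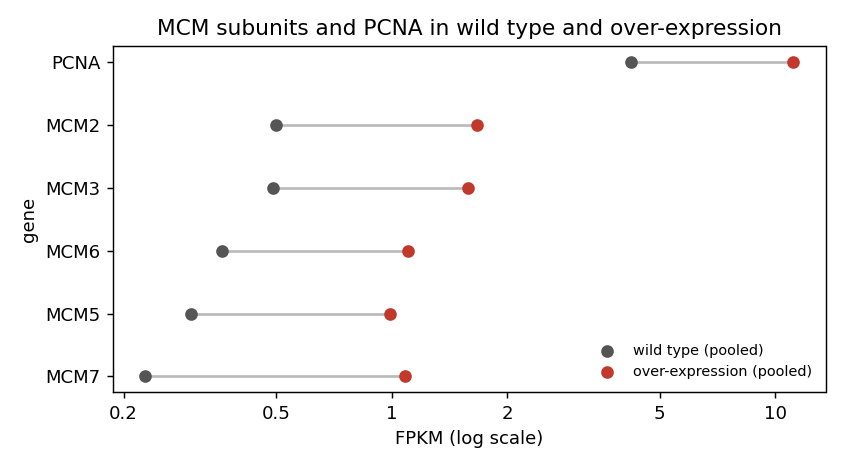
FPKM (x axis, log scale) of the 5 MCM subunits and PCNA (y axis), with grey points for wild type and red points for over-expression, each the authors' pooled value of a group with no error available. All 5 MCM subunits lie between 0.228 and 0.498 FPKM in wild type and between 0.992 and 1.67 FPKM in over-expression, while PCNA goes from 4.20 to 11.1 FPKM.

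The low wild-type level of the MCM genes bears on both direction and size. Of the 235 other loci listed in the over-expression table with wild-type levels from 0.228 to 0.498 FPKM, 235 were higher and 0 lower, and 116, or 49.4%, were called higher. Their median log2 fold change was 2.22, with quartiles at 1.65 and 2.84. MCM2, MCM3, MCM5 and MCM6 lay below that median, and MCM7, at 2.25, lay just above it. No locus with less than 0.574 FPKM in wild type was listed as lower in over-expression, so every locus listed at MCM levels was a higher one. PCNA, at percentile 46.1 of wild-type levels among listed loci, was not in that range.

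**Figure D2:**
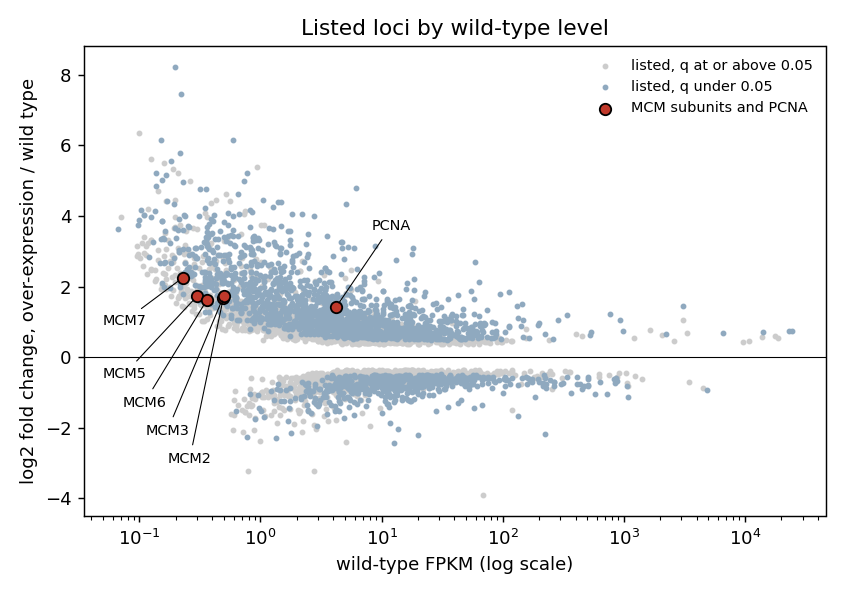
Log2 fold change in over-expression (y axis) against wild-type FPKM (x axis, log scale) for the 4295 listed loci, with called loci in blue, other listed loci in grey and the 6 named genes in red. Below 0.574 FPKM every listed locus is higher, and the 5 MCM genes lie in that range with log2 fold changes of 1.62 to 2.25.

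The libraries labelled knock-down had no listed value for MCM2, MCM3, MCM5, MCM6, MCM7 or PCNA, and their levels there are not analysed here. This does not show that they were unchanged. The wild-type values of loci listed in both tables differed by a constant factor, with a median ratio of 1.04. On the scale of the knock-down table the MCM wild-type range corresponds to 0.219 to 0.477 FPKM. All 174 loci listed there within that range were higher, and the lowest wild-type level of any locus listed as lower was 0.516 FPKM. The MCM genes thus start from wild-type levels below those of every locus listed there as lower, which is not so for PCNA. The ranks behind the q-values also imply 279 loci at p of at most 0.05 that are not analysed here.

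Loci that share the MCM complex annotation were the nearest available readings for the libraries labelled knock-down. BGIOSGA003718, annotated as a DNA helicase of the MCM complex on chromosome 1 from 22541091 to 22545391, was listed in both tables. For over-expression the authors' deposited table read 0.628 FPKM (wild type) and 1.18 FPKM (transgenic), with q = 0.130, and the locus was not called. For the label knock-down the authors' deposited table read 0.602 FPKM (wild type) and 0.227 FPKM (transgenic), with q = 0.111, and it was not called either. BGIOSGA002318, an uncharacterized protein with the same annotation, was listed only for the libraries labelled knock-down, where the authors' deposited table read 1.18 FPKM (wild type) and 0.688 FPKM (transgenic) with q = 0.185. Neither locus passed the test, and both comparisons use the same wild-type libraries.

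The annotations of the 6 genes overlapped widely. Their loci carried 43 Gene Ontology terms in all, of which 3 were shared by all 6, namely DNA replication, DNA binding and nucleus. A further 7 terms were shared by the 5 MCM genes, among them DNA replication initiation, DNA unwinding and MCM complex. With these genes left out, 11 loci with the DNA replication initiation term were listed for over-expression. All 11 were higher and 8 were called, and the median log2 fold change was 2.08. Of these 11, 5 had wild-type levels within the MCM range, where every listed locus was higher. BGIOSGA029272 and BGIOSGA000833 lay below that range, at 0.120 and 0.217 FPKM in the authors' deposited table. Among the called loci only BGIOSGA012197, at 7.63 FPKM in wild type, lay above 0.574 FPKM, the lowest level listed as lower. The other called loci lay where every listed locus was higher, so their shared direction is not a separate result. The uncalled loci BGIOSGA003695, BGIOSGA003718 and BGIOSGA030333 lay above 0.574 FPKM, at 0.645, 0.628 and 2.05 FPKM in the authors' deposited table.

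Among the 8 called, BGIOSGA026493 and BGIOSGA010344, both uncharacterized proteins whose terms also include microtubule-based movement, were at 2.92 and 2.38 on the log2 fold scale of the authors' deposited table. Between them came the uncharacterized proteins BGIOSGA029272 at 2.84 and BGIOSGA031168 at 2.55, by the authors' deposited table. Of these, BGIOSGA031168 read 0.258 FPKM (wild type) and 1.52 FPKM (over-expression) in the authors' deposited table. Under the label knock-down 4 loci with this term were listed, 1 higher and 3 lower, with a median log2 fold change of -1.09. Only the higher one was called. For that locus, BGIOSGA030333, the authors' deposited table read 1.97 FPKM (wild type) and 3.24 FPKM (transgenic), q = 0.0123. In over-expression it was also higher but not called, with a log2 fold change of 0.62 and q = 0.0518 in the authors' deposited table.

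Over any term naming DNA replication, 37 loci were listed for over-expression, including the 6 genes. Without them 31 remained, 21 higher and 10 lower, and the median log2 fold change was 0.95. Of these, 14 were called higher and 3 called lower. Of all 4295 listed loci 1383 were lower, 37.9% were called higher and 13.6% called lower, with a median of 0.67. Wild-type levels of the 31 began at 0.120 FPKM, and below 0.574 FPKM every listed locus was higher. The 3 that fell carry no MCM complex term. BGIOSGA033253, annotated to mismatch repair, fell by 0.90 on the log2 scale, by the authors' deposited table, from a wild-type level of 7.45 FPKM. BGIOSGA023449, annotated as a 5'-3' DNA helicase, fell by 0.79 on that scale, by the authors' deposited table, from 6.40 FPKM. BGIOSGA017769, annotated mainly to metabolism with regulation of DNA replication among its terms, fell by 0.58, by the authors' deposited table, from 31.3 FPKM.

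In the libraries labelled knock-down, where 2824 of all 4341 listed loci were lower, 19 loci with a DNA replication term were listed. Of the 19, 2 were higher and 17 lower. Of these, 2 were called higher and 6 called lower. Their median log2 fold change was -0.74, beside -0.58 over all listed loci. Among all 17618 loci tested by the authors 4.35% were called higher and 9.04% lower, and among listed loci 17.6% and 36.7%. The shares of tested loci may be too low here also, as 279 implied loci are not analysed.

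Of the DNA replication loci, 7 were listed in both tables and 2 of these were higher in over-expression and lower in the libraries labelled knock-down. Over all 1714 loci listed in both, 232 had this pattern and 1454 went the same way in each. Besides BGIOSGA003718 this was BGIOSGA027902, an uncharacterized protein annotated to DNA polymerase activity on chromosome 8. Over-expression gave 1.56 FPKM (wild type) and 4.62 FPKM (transgenic), q = 0.00105, in the authors' deposited table. The label knock-down gave 1.49 FPKM (wild type) and 0.717 FPKM (transgenic), q = 0.0233, in the authors' deposited table. It was called in both, in opposite directions, against the same wild-type libraries, and the difference between the transgenic groups was not tested.

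**Figure D3:**
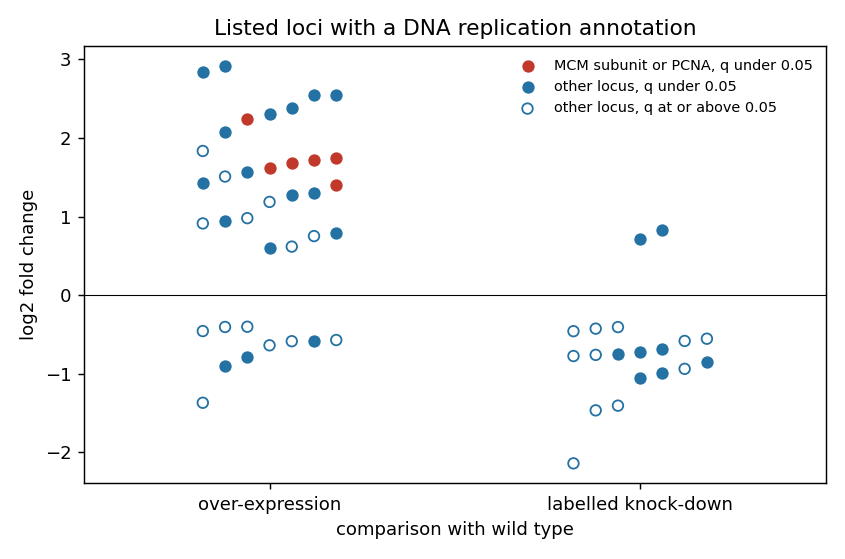
Log2 fold change (y axis) of listed loci with a DNA replication annotation in each comparison with wild type (x axis), with the 5 MCM subunits and PCNA in red and other loci in blue, filled where q was under 0.05; points are spread sideways for legibility. The 6 genes appear for over-expression only, between 1.41 and 2.25. Of the 19 loci listed for the libraries labelled knock-down 17 lie below 0, as do 2824 of all 4341 loci listed there.

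Other proteins of the replication fork were few by name. For over-expression 3 were listed besides PCNA, of which 2 rose, where 37.9% of all listed loci were called higher. A subunit of replication protein A (BGIOSGA012113), which coats the exposed single strands, rose, with 0.288 FPKM (wild type), 1.69 FPKM (over-expression) and q = 0.0111 in the authors' deposited table. At that wild-type level every listed locus was higher. DNA topoisomerase 2 (BGIOSGA005790), which untangles replicated chromosomes, rose, with 0.626 FPKM (wild type), 2.03 FPKM (over-expression) and q = 0.00105 in the authors' deposited table. A DNA topoisomerase of another class (BGIOSGA030359) had a log2 fold change of -0.70 and q = 0.159, by the authors' deposited table, and was not called.

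In the libraries labelled knock-down, where 36.7% of all listed loci were called lower, 4 fork loci were listed, all lower, and 1 was called. That was the DNA topoisomerase locus BGIOSGA009692, which fell, with 3.09 FPKM (wild type), 1.48 FPKM (transgenic) and q = 0.0439 in the authors' deposited table. Replication factor C subunit 1 (BGIOSGA035474), part of the loader that places PCNA on DNA, had a log2 fold change of -0.41 with q = 0.137 in the authors' deposited table. A DNA polymerase locus (BGIOSGA034372) had -0.94 with q = 0.0649 in the authors' deposited table.

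Nucleotide supply was represented by 1 locus, a ribonucleoside-diphosphate reductase (BGIOSGA030293), the enzyme that makes DNA precursors. It rose in over-expression, with 1.69 FPKM (wild type), 2.92 FPKM (over-expression) and q = 0.0298 in the authors' deposited table. Of 3 cell cycle regulators listed for over-expression 1 was called, where 37.9% of all listed loci were called higher. CYCB2-2, a mitotic cyclin, rose, with 1.02 FPKM (wild type), 2.72 FPKM (over-expression) and q = 0.0298 in the authors' deposited table. CYCB2-1 had a log2 fold change of 3.05 with q = 0.0965 in the authors' deposited table. RBR1, the retinoblastoma-related repressor of S-phase genes, had 1.01 with q = 0.134 in the authors' deposited table. The wild-type levels of CYCB2-1 and RBR1 were 0.165 and 0.329 FPKM in the authors' deposited table, where every listed locus was higher. None of these regulators was listed for the libraries labelled knock-down.

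Core histones package newly copied DNA, and most are made in S phase. All 17 listed histone loci were higher in over-expression, and 7 rose. Under the label knock-down all 9 listed loci were lower, and 4 fell. Both called shares are near those of all listed loci, 37.9% called higher in over-expression and 36.7% called lower under the label knock-down. Of the 4 histone loci listed in both tables, H2B.9 was at 1.86 and -1.47 and H2A.5 (BGIOSGA010990) at 3.16 and -2.08 on the log2 fold scale, by the authors' deposited table for each comparison. H2B.5 was at 0.69 and -1.37, by the authors' deposited table for each. A histone H3.3 locus (BGIOSGA012789) was at 0.50 and -0.45, by the authors' deposited table for each, and was called in neither. Histone copies are near-identical, and values of single copies are uncertain where reads were shared out among them.

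Annotation lists of mitosis are to be read beside the 37.9% of all loci listed for over-expression that were called higher and the 13.6% called lower. Of 26 listed loci of microtubule-based movement 16 rose and 0 fell. Of 26 listed cell division loci 9 rose and 0 fell, a share near that of all listed loci, and 7 of the 26 were lower without passing the test. Of 47 cytokinesis loci other than MCM2, MCM3 and MCM5, 24 rose and 2 fell. Of 22 listed DNA repair loci 4 rose and 6 fell, and their median log2 fold change was -0.47. These lists share loci with the DNA replication list and with each other. Their lowest wild-type levels were 0.0966 FPKM for microtubule-based movement and for cytokinesis, 0.141 FPKM for cell division and 0.242 FPKM for DNA repair. Below 0.574 FPKM every locus listed for over-expression was higher.

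**Figure D4:**
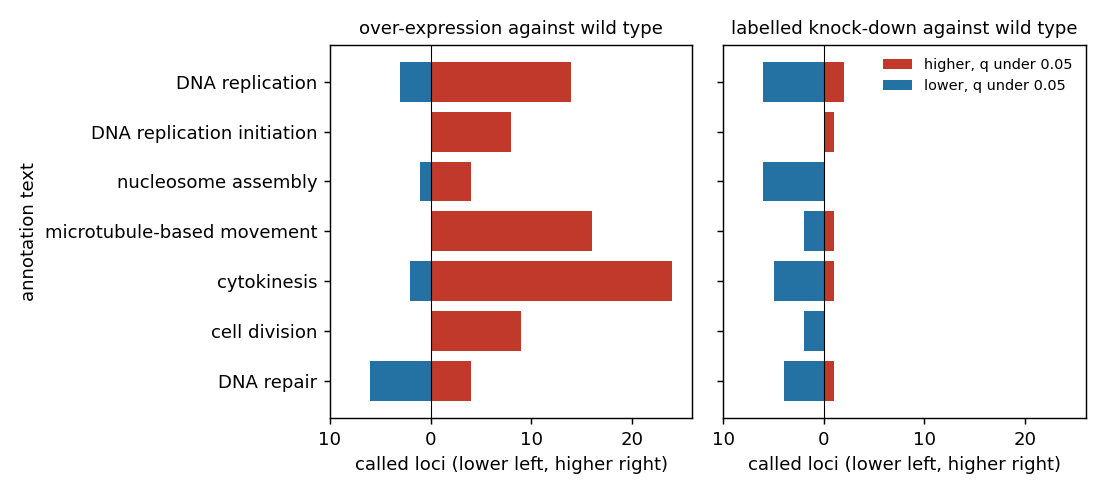
Number of called loci (x axis, higher to the right and lower to the left of 0) for annotation lists (y axis) in over-expression (left panel) and in the libraries labelled knock-down (right panel), with the 5 MCM genes and PCNA left out. For over-expression 14 of 31 listed DNA replication loci are higher and 3 lower, where 37.9% and 13.6% of all listed loci were. For the libraries labelled knock-down 2 of 19 are higher and 6 lower, where 17.6% and 36.7% of all listed loci were.

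Markers of other tissues were read in the same comparison. Of 8 root names 3 were listed for over-expression, SCR1, SHR1 and SHR2, transcription factors known from root ground tissue in Arabidopsis and also active in leaves. All 3 were higher and 1 was called, SCR1, with 0.638 FPKM (wild type), 1.86 FPKM (over-expression) and q = 0.0132 in the authors' deposited table. SHR1 and SHR2, with q = 0.119 and q = 0.0512 in the authors' deposited table, did not pass and lie at wild-type levels of 0.178 and 0.325 FPKM, where every listed locus was higher. The summed level of the 3 was 1.14 FPKM in wild type and 3.71 FPKM in over-expression. The 12 listed photosynthetic loci were all lower, 5 of them called, where 13.6% of all listed loci were called lower. They summed to 10157 FPKM in wild type and 5785 FPKM in over-expression. Of these sums RBCS alone gave 4491 and 2432 FPKM, and it was not called (q = 0.189 in the authors' deposited table). Of 7 shoot meristem names and 7 floral names 0 were listed in either table. In the libraries labelled knock-down 0 root names and 19 photosynthetic loci were listed. Of the latter 16 fell, where 36.7% of all listed loci were called lower. The part of tissue makeup in the MCM and PCNA values was not tested.

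Among 783 other loci of the over-expression table with a descriptive name, those nearest in level to the 6 genes were sought over the 2 group values. Likeness was the distance in log2 FPKM from the members' median, 0.421 FPKM in wild type and 1.32 FPKM in over-expression. The 5 nearest were a xyloglucan endotransglucosylase/hydrolase (BGIOSGA032372), a RING-type ubiquitin ligase (BGIOSGA004934), a phenylalanine ammonia-lyase (BGIOSGA014703), a lipoxygenase (BGIOSGA036014) and a pyruvate, phosphate dikinase (BGIOSGA010483). Their distances ran from 0.13 to 0.26, and in the authors' deposited table their log2 fold changes ran from 1.51 to 1.99. The choice by both levels sets these fold changes near those of the 6 genes. Under the label knock-down BGIOSGA004934 and BGIOSGA010483 were listed and rose, by 1.76 and 1.91 on the log2 scale of the authors' deposited table. The others of the 5 were not listed there. None of the 5 is a replication gene by name, and BGIOSGA032372 was not called (q = 0.152 in the authors' deposited table).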

How the data were processed

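Libraries from 5-week-old seedlings (2 per group) were made from total RNA with Illumina protocols, per the labels' protocols. The submitters' processing notes name Cufflinks 2.2.1 and Cuffdiff. Aligner, genome build and strand handling: not given in the sources used here. Per the file headers, the deposited FPKM are pooled, with 1 value for each group at each locus. The authors' log2 fold change was checked to be the log2 ratio of these values with no pseudocount. The deposited p-values and q-values came from Cuffdiff. There were 0 unassigned columns of single libraries. Read counts are not analysed here, so depth is unknown and no interval was computed.

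The number of tests was recovered as the value for which most ratios of p to q gave ranks that were whole numbers to a relative 3e-06. It was 17596 for over-expression (91.1% of p levels) and 17618 for the libraries labelled knock-down (89.7%), and it was recovered in 3 of 3 simulated comparisons. Loci were matched to lists by protein name, symbol or annotation text. The members and lists were chosen with earlier results of these data known. Named loci were the members, up to 6 called loci of each list of protein names by size of change, and the 5 nearest in level; uncalled list loci, and loci named from annotation terms, were added after their values were seen. Of the histone list, only loci listed in both tables are given by value. The alternatives were a stricter q, centring, a minimum FPKM and pseudocounts. The reference gene table matched 0 of 6922 identifiers and was not used. Computations used Python 3.11.15 and pandas 2.3.3.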

Additional observations from a re-analysis of the deposited data

How the results depend on the processing

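No paired analysis was possible because the tables hold 1 pooled value per group, and for the same reason no replicate could be left out. All 6 genes stayed higher after centring on the median of listed loci, which moves the fold change only and leaves the authors' q as it is. At q under 0.01 only 3 of the 6 were called, MCM2, MCM3 and PCNA, beside 21.2% of listed loci called higher. With at least 1 FPKM required in the higher group 5 were called, as MCM5 stayed below it. A pseudocount of 1 lowered the log2 fold changes to 0.83 for MCM2, 0.79 for MCM3, 0.62 for MCM5, 0.63 for MCM6, 0.76 for MCM7 and 1.22 for PCNA, which puts PCNA first instead of last. A pseudocount of 0.1 gave 1.56, 1.51, 1.45, 1.39, 1.85 and 1.39 in the same order of genes. The shift follows from adding a constant to levels near or below it.

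Of 37 listed loci with a DNA replication term, 20 were called higher in over-expression, the 6 genes included, and 8 at q under 0.01. Of all listed loci 37.9% and 21.2% were. In the libraries labelled knock-down the 2 called higher and 6 called lower became 0 and 2 at q under 0.01. With at least 1 FPKM required, 1 of those called higher remained. Restricting to the term DNA replication itself, chosen after the data were seen, left 1 of 3 loci called lower in over-expression. In the libraries labelled knock-down it left 1 called higher and 3 called lower. Other alternatives kept counts within 1.5 times.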

Other observations

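The genomic surroundings of the 6 genes were also read from the over-expression table. MCM5 and PCNA lie 364 kb apart on chromosome 2. Within 100 kb of the 6 genes 22 other loci were listed, of which 19 were higher, 11 of them called, and 2 were called lower. Among all 4295 listed loci 1383 were lower, 37.9% were called higher and 13.6% called lower. Whether the surroundings differ from this was not tested. The locus nearest to MCM3, BGIOSGA020044, lies 600 bp away and rose, with 0.905 FPKM (wild type), 2.96 FPKM (over-expression) and q = 0.0195 in the authors' deposited table. The locus nearest to MCM7, BGIOSGA037591, lies 802 bp away and had a log2 fold change of 0.97 with q = 0.0991 in the authors' deposited table. BGIOSGA005409, at 7405 bp from PCNA, rose, with 2.29 FPKM (wild type), 6.30 FPKM (over-expression) and q = 0.00105 in the authors' deposited table. BGIOSGA009213, the nearest to MCM5 at 31052 bp, had a log2 fold change of -0.72 with q = 0.106 by the authors' deposited table. BGIOSGA019450, the nearest to MCM6 at 80597 bp, had 1.57 with q = 0.00192 by the authors' deposited table. No locus was listed within 100 kb of MCM2.

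Silencing terms appear among the annotations of the MCM genes. Of 27 loci listed for over-expression with the term histone H3-K9 methylation 26 were higher and 19 were called higher, and MCM2, MCM3, MCM5 and MCM7 were 4 of them. Without these 4, 15 of 23 were called higher, and their log2 fold changes had a median of 1.43. The term cell proliferation, carried by the same 4 genes, gave 12 of 17 and a median of 1.51 without them. Of all 4295 listed loci 1383 were lower, 37.9% were called higher and the median was 0.67. Below 0.574 FPKM in wild type every listed locus was higher, and these lists were not compared with that bound. Any part of silencing in these values was not tested. The 4 loci with the THO complex term listed for over-expression were MCM2, MCM3, MCM5 and MCM7 themselves, and 1 other locus with this term was listed under the label knock-down, uncalled. Of 7 loci with the H3-K9 term listed for the libraries labelled knock-down 1 was called higher and 1 was called lower. Their median log2 fold change was -0.77, beside -0.58 over all loci listed there.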
